A study of Mus musculus with 9 samples.

Results

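Klf9 regions that lie away from gene promoters were examined in the mouse heart. They were chosen from the authors' table of merged Klf9 regions as every row in which no promoter was counted, with or without a CpG island or an assigned gene. This gave 718 of 5238 regions (13.7%), and the other 4520 regions held at least 1 promoter. The choice used position only and no measured signal. The regions closest to a gene start lay 2644 bp inside a gene or 7629 bp upstream of one. Among the promoter regions, the nearest assigned start lay up to 7675 bp away.

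The regions came from chromatin precipitated with an antibody to Klf9 from hearts of mice aged 12 to 14 weeks. Of these, 1 library came from hearts 2 weeks after transaortic constriction (TAC), an operation that loads the left ventricle with pressure, and 1 from sham-operated hearts. Their strain, sex and number per library are not given in the labels, and the input was a pool of both. RNA came from a separate set of whole hearts with 3 libraries in each of 6 groups. Klf9KI hearts carried the alphaMHC-Cre driver, which acts in cardiomyocytes, together with a Klf9 knock-in allele, and Wt-Cre hearts carried the driver alone. Both were sampled at 1, 4 and 8 weeks of age. The regions were therefore mapped in adult hearts with no knock-in in their labels, and the RNA was measured in other, younger mice. No source ties the 3 libraries of a group to separate litters or gives their sex, so p-values measure the spread between these samples.

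Klf9 belongs to the Krüppel-like family of DNA-binding proteins. Their zinc fingers contact GC-rich and CACCC-type DNA elements, and Klf9 is mostly known as a repressor whose own gene responds to glucocorticoids and thyroid hormone. Of the 5238 merged Klf9 regions here, 4009 were promoter regions with a CpG island. Regions elsewhere may be enhancers, silencers or start sites that an annotation leaves out, and they can act on the gene that holds them or on another gene.

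Several of these regions lay on a start site that another annotation records. RefSeq windows of 300 bases around annotated starts (build GRCm38.p6, the same coordinates as mm10) were overlapped by 102 of the 699 regions on chromosomes that the window table holds (14.6%). Windows were overlapped by 79 of 215 regions with a CpG island and by 23 of 484 without one. Some starts on these chromosomes have no window, so all these counts and shares are lower limits. A region 11913 bp from the assigned start of Trim35, for example, lay 850225 bp from the nearest start with a window. Of the 102 regions, 63 overlapped a window with the same gene symbol as the authors' table assigned. Symbols were compared as written, so a gene under another name was not counted. For 5 regions the bases upstream of the RefSeq start are shown, because these regions carry genes or signals described below. Each runs 5′ to 3′ on the gene's strand and is the part of the region that lies within 250 bases upstream of the RefSeq start. Capitals mark the GC box GGGCGG (complement CCGCCC), the CACCC box (complement GGGTG) and the Krüppel-type element GGGCGTG (complement CACGCCC). All were searched on both strands, and overlapping matches run together in the capitals.
Trim7, chr11:48837345-48837470, + strand: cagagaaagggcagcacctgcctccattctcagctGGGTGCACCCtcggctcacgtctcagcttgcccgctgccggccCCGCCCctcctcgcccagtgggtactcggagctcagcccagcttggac
Tef, chr15:81811164-81811413, + strand: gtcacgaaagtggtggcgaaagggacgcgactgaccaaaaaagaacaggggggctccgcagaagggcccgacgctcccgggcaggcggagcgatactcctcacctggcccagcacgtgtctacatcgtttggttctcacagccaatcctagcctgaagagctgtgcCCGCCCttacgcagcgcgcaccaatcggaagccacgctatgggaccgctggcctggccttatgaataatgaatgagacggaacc
Pfkm, chr15:98111843-98112059, + strand: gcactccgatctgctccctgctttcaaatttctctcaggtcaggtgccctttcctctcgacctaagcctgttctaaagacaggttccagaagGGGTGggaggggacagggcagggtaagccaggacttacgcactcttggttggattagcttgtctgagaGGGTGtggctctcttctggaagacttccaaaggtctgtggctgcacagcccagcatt
Fam214b, chr4:43040302-43040551, - strand: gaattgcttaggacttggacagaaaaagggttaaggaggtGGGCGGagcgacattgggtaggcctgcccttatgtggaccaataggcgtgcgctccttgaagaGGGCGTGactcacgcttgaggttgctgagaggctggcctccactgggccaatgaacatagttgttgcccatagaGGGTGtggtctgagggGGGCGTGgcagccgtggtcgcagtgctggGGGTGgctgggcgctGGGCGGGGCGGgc
Hopx, chr5:77095268-77095486, - strand: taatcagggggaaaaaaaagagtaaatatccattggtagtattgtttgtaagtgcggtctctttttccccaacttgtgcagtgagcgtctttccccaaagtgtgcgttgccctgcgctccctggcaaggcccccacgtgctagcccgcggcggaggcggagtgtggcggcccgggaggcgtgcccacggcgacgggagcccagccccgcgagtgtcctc

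The Trim7 stretch of 126 bases held 1 GC box and 2 CACCC boxes. The Fam214b stretch of 250 bases held 3 GC boxes, 2 CACCC boxes and 2 Krüppel-type elements. The Tef stretch held 1 GC box, the Pfkm stretch held 2 CACCC boxes, and the Hopx stretch held none of these letters. A stretch of 38 bases in the Mrpl48 region described below is not shown and held none of them either. Over the 119 windows that the regions overlapped, a GC box stood in the 250 upstream bases of 77.3%, a CACCC box in 70.6% and the Krüppel-type element in 31.9%. Over the 3675 windows overlapped by promoter regions the shares were 76.1%, 60.3% and 29.7%, and over all 32851 windows they were 32.7%, 52.0% and 7.55%. The median GC content of the same bases was 64.8%, 64.0% and 52.4% in these sets, and its part in the motif shares was not tested. A match is a string of letters and not a measured contact.

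By the table's own assignment most of the regions sat inside genes. A total of 477 of 718 (66.4%) lay within a gene, 71 (9.89%) only downstream of one, 14 (1.95%) only upstream, 6 (0.836%) both downstream of one and upstream of another, and 150 (20.9%) had no assigned gene. The promoter regions had 55.0% within a gene, 31.2% only upstream and none without a gene. Since the choice of regions removed those close to a start, this contrast in position follows from the rule. A CpG island was present in 219 of 718 regions (30.5%), against 4009 of 4520 promoter regions (88.7%). The rule did not use islands, but it split the regions by promoters, so this contrast is not independent of the rule. The nearest assigned start was a median of 16224.5 bp away. Of the 150 regions without an assigned gene, 79 lay within a RefSeq gene body, 41 of these in a protein-coding gene. Among the 144 of them on chromosomes with windows, 19 overlapped the window of an annotated start, again a lower limit.

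**Figure D1:**
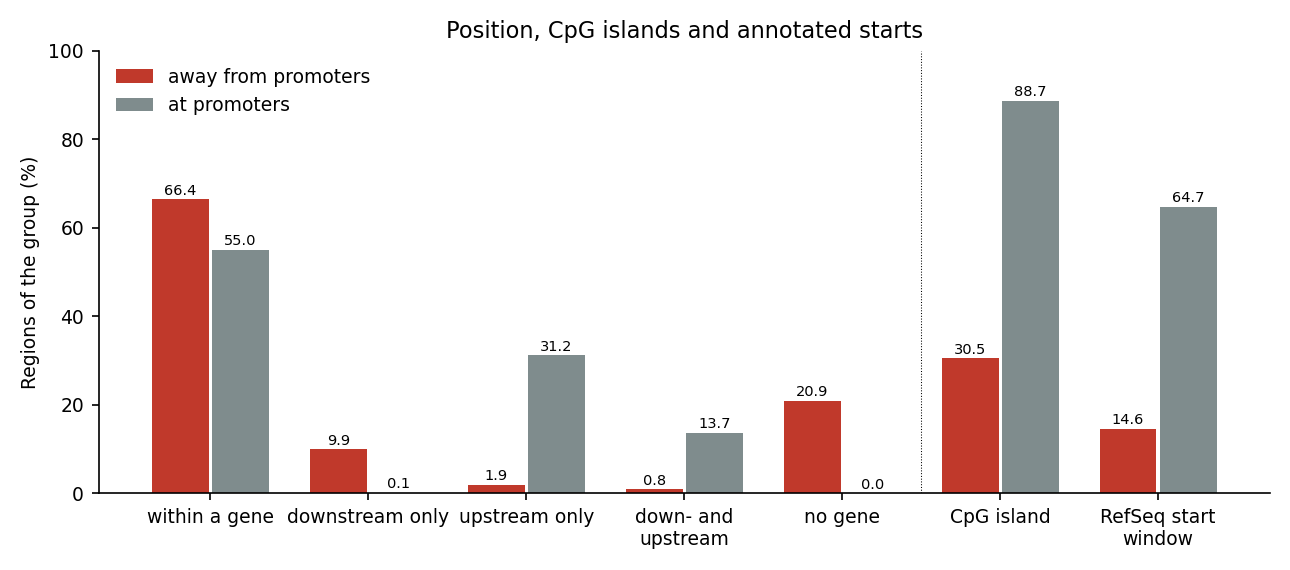
Share of regions (%) by position relative to assigned genes, with a CpG island, and at a RefSeq start window, for 718 regions away from promoters (red) and 4520 promoter regions (grey). Bars are shares of each group, except that the last pair counts only regions on chromosomes with windows. Some starts on these chromosomes have no window, so the last pair gives lower limits. CpG islands were in 30.5% of the regions away from promoters and in 88.7% of the promoter regions.

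Most assigned genes held a single region, and some held several. The table gave 620 gene symbols in all, and 76 genes held at least 2 of the regions. Plec, which encodes the cytoskeletal linker plectin, held 4. Ablim1, Fbxo31, Mical3, Usp2, Phldb1, Tns1, St6galnac6 and Jph2 held 3 each, and these genes were picked for their number of regions. There were 35 pairs of regions within 5000 bp of each other. Neither count was made for the promoter regions, and the part of gene length was not tested. Members in 1 gene share their surroundings and are not independent of each other.

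Signal away from promoters was close to that at promoters. The mean signal of a region (the authors' Avg Value) had a median of 22.8 after TAC and 23.7 in sham hearts away from promoters, against 23.2 after TAC and 24.8 in sham hearts at promoters. The highest signal within a region (the authors' Peak Value) had a median of 29 after TAC and 30 in sham hearts away from promoters, and of 31 and 33 at promoters in the same order. The regions were shorter, with a median of 317 bp against 382 bp at promoters. With 1 library a condition these values have no replicate error, and how the signal was scaled between TAC and sham is not stated in the sources used here.

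The region with the highest sham signal lay inside Fbxo46, which encodes an F-box protein, at chr7:19131393-19132068 (mm10, coordinates as the table gives them), 11871 bp from its start and next to Qpctl. Its mean signal was 82.2 after TAC and 88.1 in sham hearts. A region at chr4:155173314-155173845 inside Ski, a co-repressor of SMAD proteins, had 74.2 and 75.3 in the same order, and a region at chr12:21135940-21136435 inside Asap2, which activates the GTPase of Arf proteins, had 84.5 and 71.5. A region at chr7:100582595-100583168 inside Mrpl48, a mitochondrial ribosomal protein, had 56.3 after TAC and 74.8 in sham hearts. The Fam214b region shown above had 60.2 after TAC and 66.3 in sham hearts, and the table places it 5862 bp inside that gene and 8974 bp upstream of Stoml2. A region downstream of Trim8 and Arl3 had 70.8 and 65.8, and 1 without an assigned gene, inside the RefSeq long non-coding gene Gm30771, had 62.3 and 71.0. The region at chr19:57196545-57196977 inside Ablim1, an actin-binding LIM protein, differed more, with 35.5 after TAC and 66.6 in sham hearts, although a peak was called in both.

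Between TAC and sham the regions moved little and in both directions. The median log2 ratio of TAC to sham mean signal was -0.08, against -0.12 at promoters. Its SD over regions was 0.50, against 0.43 at promoters. Among regions without a CpG island the SD was 0.53 away from promoters and 0.52 at promoters. With an island it was 0.42 away from promoters and 0.42 at promoters. At least 1.5-fold higher signal after TAC was seen in 65 of 718 regions (9.05%), where the same limit held for 5.63% of all merged regions. At least 1.5-fold lower signal was seen in 107 (14.9%), where it held for 12.9% of all. Centred on the median of all regions, which lay at -0.12, the counts were 94 higher and 76 lower, and the median became 0.03. The centred counts over all merged regions were not made, so nothing particular to these regions is read from them. A peak was called in both libraries for 403 regions (56.1%), in TAC alone for 125 (17.4%) and in sham alone for 190 (26.5%). The promoter regions had 3077, 468 and 975 of 4520 in these classes.

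The spread of the ratio depended on how strong a region was. Among regions whose higher value of the pair lay below the median the SD was 0.56, and among the others it was 0.43. Of the 403 regions called in both libraries, 13 were at least 1.5-fold higher and 13 at least 1.5-fold lower after TAC. Most of the regions past the limit were thus called in 1 library only. The 125 TAC-only regions had a median signal of 22.9 after TAC and 15.8 in sham hearts, and the 190 sham-only regions had 15.4 after TAC and 22.8 in sham hearts.

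**Figure D2:**
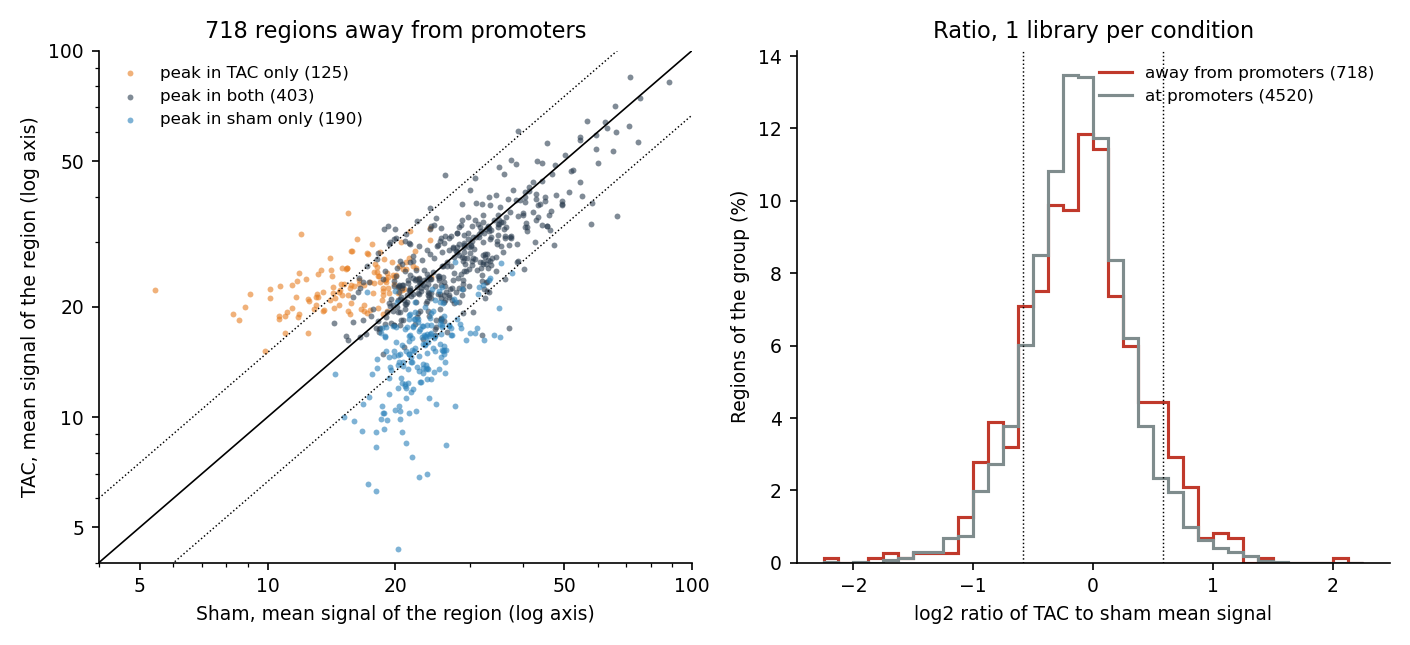
Left, mean signal of each of 718 regions after TAC (vertical) against sham (horizontal), both on log axes in the authors' signal units. Colours mark the library with a peak call, the solid line equal signal and the dotted lines 1.5-fold. Right, share of regions (%) by log2 ratio for regions away from promoters (red) and at promoters (grey). The distributions are centred near 0, and the 125 TAC-only and 190 sham-only regions hold most points beyond the dotted lines.

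Among regions whose higher value reached at least the median of 25.4, the highest ratio belonged to a region at chr4:140770433-140770738, 3618 bp inside Padi4, a peptidylarginine deiminase of granulocytes, with a mean signal of 31.6 after TAC and 12.0 in sham hearts. Regions inside Ccdc88c (36.0 and 15.5), in a part of the RefSeq gene Zfhx3 that the authors' table left unassigned (27.2 and 14.0), inside Triobp (30.7 and 16.2) and inside Fbxl20 (28.4 and 15.7) followed, each with TAC given before sham. None of these 5 had a peak call in sham hearts. The lowest ratio belonged to a region at chr19:22915933-22916178, deep inside the cation channel gene Trpm3, with 8.38 after TAC and 26.4 in sham hearts. Next came regions in H13 (10.8 and 27.7), in an unassigned part of chromosome 18 (16.6 and 35.2), in Ccdc64 near Rab35 (17.5 and 37.2) and in Sema3b near Gnai2 (16.8 and 34.1). Of these 5, the one in Ccdc64 kept a peak call after TAC.

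To read RNA, symbols were matched to the gene tables, and 572 of 620 matched, which covers 547 of the 718 regions. Of the matched genes 201 also had a promoter region of their own and 371 did not. A library's total lay between 12086856 and 32855383 gene counts. Klf9 RNA itself, read first, was 193, 222 and 183 CPM (counts scaled to a common library total within an age) in Klf9KI hearts at 1 week, against 23.2, 21.9 and 17.2 CPM in Wt-Cre hearts. Its log2 fold change, Klf9KI over Wt-Cre, was 3.26 (SE 0.13, edgeR adjusted p = 3.55e-09) at that age. It was 0.37 (adjusted p = 0.111) at 4 weeks, which did not pass, and 1.19 (adjusted p = 0.00594) at 8 weeks. Klf9KI replicates 1 and 2 at 1 week had 710 and 607 CPM of Xist, the X-inactivation RNA of female cells, and every other library had under 4 CPM. Markers of cardiomyocytes summed to between 34441 and 72589 CPM in every library. These were whole hearts, in which fewer cells of a type and less RNA per cell cannot be told apart.

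Among genes with a region away from promoters, most of those called at 1 and 4 weeks were lower in Klf9KI hearts, and at 8 weeks both directions were found. Genes of promoter regions alone, counted below, were also mostly lower among those called at 1 and 4 weeks. At 1 week 514 of the 572 genes passed the filter on low counts, and 19 (3.70%) passed the test at an adjusted p under 0.05, 2 higher and 17 lower, where 1.68% of all 15825 genes tested did, 0.651% higher and 1.03% lower. At 4 weeks 94 of 503 (18.7%) passed, 25 higher and 69 lower, where 13.4% of 14513 did, 6.65% higher and 6.75% lower. At 8 weeks 79 of 504 (15.7%) passed, 43 higher and 36 lower, where 10.5% of 14483 did, 4.96% higher and 5.52% lower. The median log2 fold change was -0.09, -0.11 and 0.13 at these ages, against -0.01, 0.00 and 0.04 over all genes tested. The assigned genes had more counts behind them, with a median of 51.4, 44.5 and 36.0 CPM (not divided by length) against 19.0, 17.6 and 15.6 over all genes, and were longer, with a median genomic span of 40480 bp against 20641 bp at 1 week. The part of counts and length in the shares was not tested. At 4 weeks cardiomyocyte markers summed to between 48779 and 55824 CPM in Klf9KI hearts and between 64259 and 72589 CPM in Wt-Cre hearts, with 2 of 8 called lower. Smooth muscle markers summed to between 106 and 142 CPM in Klf9KI hearts and between 405 and 1113 CPM in Wt-Cre hearts, with 1 of 4 called lower. At 1 week the 3 skeletal muscle markers found summed to between 13.4 and 20.1 CPM in Klf9KI hearts and between 51.1 and 93.3 CPM in Wt-Cre hearts, with 1 called lower. None of these sums overlapped between the genotypes, and their part in the falls was not tested.

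The number of calls changed with the libraries in the fit. At 1 week, leaving out any single library gave 0 to 1 higher and 8 to 12 lower. Without the 2 Klf9KI replicates that carried Xist, 1 Klf9KI library remained against 3 of Wt-Cre and was assumed to vary like them. That fit called 0 genes higher and Adssl1 alone lower, and such a small fit says little about the other calls. At 4 weeks, leaving out Klf9KI replicate 1 gave 11 higher and 29 lower, and leaving out Wt-Cre replicate 3 gave 39 and 107. At 8 weeks, leaving out Wt-Cre replicate 2 gave 13 and 13, and leaving out Klf9KI replicate 3 gave 73 and 35. Over all 16660 genes of the fit with every library, the genotype effect differed between 4 weeks and 1 week in 1.15% and between 8 weeks and 1 week in 9.45%. It differed in 1 or both of these contrasts for 21 of the 32 named genes, which had been chosen for their calls at single ages, so nothing is read from that count.

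The counts differed with position. With a region inside the gene, 19 of 380 passed at 1 week, 80 of 373 at 4 weeks (18 higher, 62 lower) and 62 of 377 at 8 weeks (33 higher, 29 lower). With the region outside, 0 of 134, 14 of 130 and 17 of 127 passed. Genes with a region inside had more counts and a longer span, with a median of 62.6 CPM and 61673 bp against 27.9 CPM and 14991 bp at 1 week, and no test of the difference was made. Genes without a promoter region of their own passed as 9 of 321, 62 of 312 and 56 of 314 at the 3 ages, and those with one as 10 of 193, 32 of 191 and 23 of 190. Genes with at least 2 regions passed as 7 of 66, 21 of 67 and 8 of 69, all 7 at 1 week and 18 of the 21 at 4 weeks being lower. Over all genes tested 1.68%, 13.4% and 10.5% passed at these ages. The genes with at least 2 regions had a median of 97.6 CPM and 53483 bp at 1 week, against 19.0 CPM and 20641 bp over all genes. The part of counts and length was not tested. Genes whose region was at least 1.5-fold lower after TAC passed as 7 of 97, 23 of 96 and 19 of 96, and those whose region was at least 1.5-fold higher as 0 of 54, 5 of 52 and 6 of 51. Genes of promoter regions alone passed as 92 of 4351, 513 of 4259 and 379 of 4260. Of these, 19 were higher and 73 lower at 1 week, 152 and 361 at 4 weeks, and 139 and 240 at 8 weeks.

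**Figure D3:**
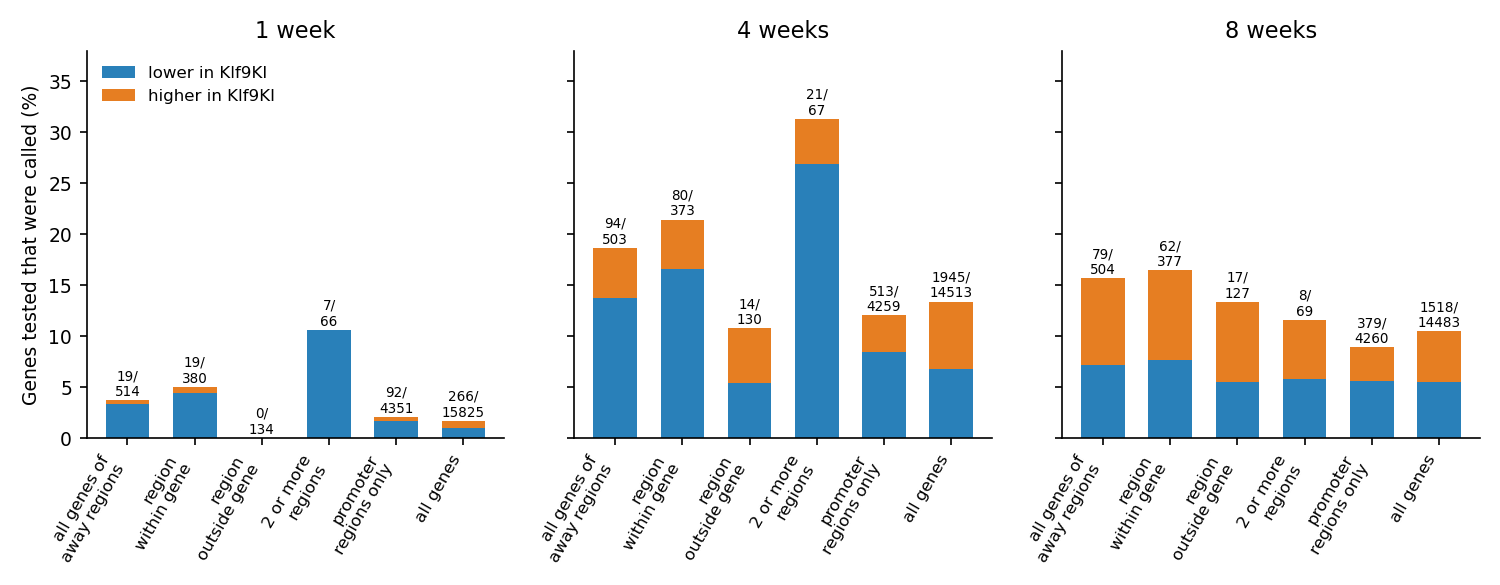
Share of tested genes (%) called at an adjusted p under 0.05 at 1, 4 and 8 weeks, split into lower (blue) and higher (orange) in Klf9KI hearts, with called and tested numbers above each bar. Sets are genes of regions away from promoters, the subsets with a region inside the gene, outside it, or with 2 or more regions, genes of promoter regions only, and all genes. At 4 weeks 94 of 503 genes of regions away from promoters were called, and 1945 of 14513 over all genes.

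At 1 week, when Klf9 RNA differed most, the fall was led by Trim7, a ubiquitin ligase known to bind glycogenin. It held 2 regions, both with a CpG island, 11322 and 12218 bp inside the gene (chromosome 11, 48826140 to 48852209). The one further in had a mean signal of 47.0 after TAC and 51.8 in sham hearts, and the other, whose upstream bases are shown above, had 15.4 and 22.3. Trim7 RNA was 6.38, 9.97 and 6.11 CPM in Klf9KI hearts and 29.1, 19.9 and 16.6 CPM in Wt-Cre hearts at 1 week. At 4 weeks it was 3.52, 2.67 and 5.71 CPM in Klf9KI hearts and 39.7, 69.7 and 75.7 CPM in Wt-Cre hearts. At 8 weeks it was 6.57, 4.23 and 17.5 CPM in Klf9KI hearts and 57.8, 42.8 and 75.2 CPM in Wt-Cre hearts. Every Klf9KI heart stood below every Wt-Cre heart of its age, and the log2 fold changes were -1.55 (SE 0.25, adjusted p = 0.00643), -3.96 (SE 0.33, adjusted p = 8.22e-05) and -2.63 (SE 0.45, adjusted p = 0.00468). An antisense gene, Gm16170, overlaps its far end and fell by 3.83 at 4 weeks, and without a stated strand setting reads of the overlap cannot be told apart.

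Trim7 was 1 of 5 genes called at all 3 ages, each lower at each age. The share of all genes called at all 3 ages was not counted, so nothing is read from this number or its direction. Adssl1 encodes the muscle adenylosuccinate synthase of the purine nucleotide cycle and held a region 9067 bp inside the gene, with a mean signal of 23.9 after TAC and 23.8 in sham hearts. Its RNA was 65.3, 70.4 and 77.2 CPM in Klf9KI hearts at 1 week and 146, 156 and 133 CPM in Wt-Cre hearts, without overlap. The log2 fold changes of Adssl1 were -1.03 (SE 0.11, adjusted p = 0.000265), -1.59 (SE 0.12, adjusted p = 1.23e-05) and -1.49 (SE 0.22, adjusted p = 0.00197) at 1, 4 and 8 weeks. Mdga1, a membrane-anchored adhesion protein known from neurons, held a CpG-island region far inside the gene, 46031 bp from the start, with 19.8 after TAC and 35.1 in sham hearts. Its RNA averaged 3.83 ± 0.18 CPM in Klf9KI hearts and 19.8 ± 7.4 CPM in Wt-Cre hearts at 4 weeks (SD, n = 3 each), and it fell by 1.13, 2.37 and 2.24 on the log2 scale at the 3 ages.

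Fdft1, the squalene synthase that commits isoprenoids to sterols, held a region with 25.1 after TAC and 34.5 in sham hearts. Fdft1 also had a promoter region of its own. Its RNA was 10.03, 9.46 and 10.8 CPM in Klf9KI hearts at 4 weeks and 31.9, 26.2 and 31.9 CPM in Wt-Cre hearts. Fdft1 fell by 0.77 (SE 0.15), 1.57 (SE 0.15) and 1.91 (SE 0.28) at the 3 ages. St6galnac6, a sialyltransferase of ganglioside synthesis, held 3 regions, 2 inside the gene and 1 downstream of it. The downstream one had 11.3 after TAC and 24.0 in sham hearts, and those inside had 20.1 and 13.6 after TAC and 19.5 and 18.1 in sham hearts. St6galnac6 fell by 0.43, 1.15 and 1.07, and its 1-week call (adjusted p = 0.0434) was lost in 10 of 14 alternatives.

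**Figure D4:**
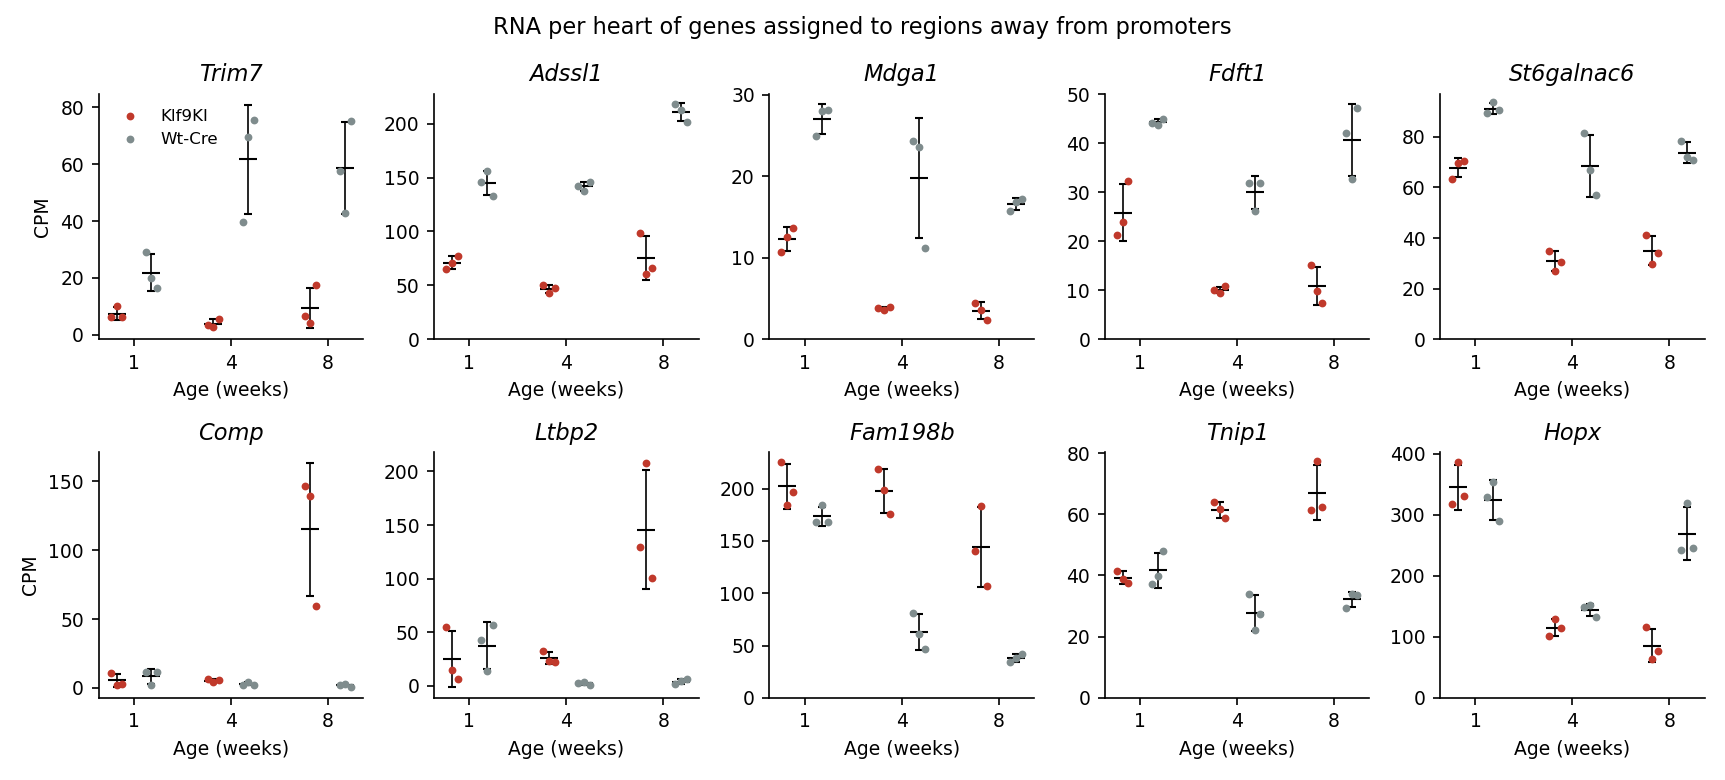
RNA (CPM, scaled within an age) in each heart at 1, 4 and 8 weeks for 10 genes, Klf9KI (red) left of Wt-Cre (grey). Bars are mean ± SD of 3 hearts. In Trim7, Adssl1, Mdga1, Fdft1 and St6galnac6 every Klf9KI heart lies below every Wt-Cre heart at each age, and in Comp and Ltbp2 the Klf9KI hearts separate upward at 8 weeks.

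The other named genes that fell at 1 week were Vash2, which removes the terminal tyrosine of tubulin, and Thra, the thyroid hormone receptor alpha. Vash2 stood at 14.5, 14.1 and 20.6 CPM in Klf9KI hearts and at 41.1, 30.4 and 39.8 CPM in Wt-Cre hearts, a log2 fold change of -1.17 (SE 0.18, adjusted p = 0.00387). At 4 and 8 weeks its counts did not pass the filter. Thra was 101, 108 and 105 CPM in Klf9KI hearts and 191, 153 and 180 CPM in Wt-Cre hearts, a change of -0.74 (SE 0.11, adjusted p = 0.00258). It was at -0.61 (adjusted p = 0.0670) at 4 weeks and at -0.03 at 8 weeks. With Klf9KI replicate 3 as the only Klf9KI library, the one without Xist, the 1-week log2 fold changes were -1.82 for Trim7, -0.97 for Mdga1, -0.44 for Fdft1, -0.71 for Thra and -0.83 for Vash2, and none passed with 1 library in that group. Of 14 alternatives 5 lost the Fdft1 call. The 2 genes that rose at 1 week were Ndufv3, a subunit of respiratory complex I (349 ± 34 CPM in Klf9KI hearts and 244 ± 8.3 CPM in Wt-Cre hearts, log2 fold change 0.51), and the lysophospholipase Abhd12 (50.1 ± 3.2 and 34.6 ± 1.7 CPM in the same order, 0.53; SD, n = 3 each). Of 14 alternatives 8 lost the Ndufv3 call and 9 the Abhd12 call. The Ndufv3 region had 10.4 after TAC and 22.4 in sham hearts. Ndufv3, Abhd12 and Thra also had a promoter region of their own. Of the named genes described below, so did Ttll1, Tef, Tgfb1, Kcnk3, Nr1d1, Acsl1, Pfkm, Jph2 and Epas1.

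At 4 weeks the largest rise was that of Ltbp2, a microfibril protein of the family that binds latent TGF-beta. Its region lay 91778 bp inside the gene (chromosome 12) and had a mean signal of 34.6 after TAC and 28.8 in sham hearts. Ltbp2 RNA was 32.2, 22.8 and 22.0 CPM in Klf9KI hearts and 2.65, 3.36 and 1.08 CPM in Wt-Cre hearts, a log2 fold change of 3.44 (SE 0.32, adjusted p = 8.35e-05). Igsf23, which holds immunoglobulin domains, rose by 2.08, and Mal, a proteolipid of myelin and of epithelial membranes, by 2.03. Fam198b, a Golgi protein, stood at 218, 198 and 176 CPM in Klf9KI hearts and at 80.8, 60.7 and 46.8 CPM in Wt-Cre hearts, a change of 1.65 (SE 0.19, adjusted p = 0.000246). Tnip1, which binds the ubiquitin-editing protein A20 and restrains NF-kappa-B, rose by 1.15, and Sulf2, which trims heparan sulfate outside the cell, by 1.03. Mal was the only one of these 6 not called at 8 weeks, where it was at -0.19 (adjusted p = 0.603). At 4 weeks fibroblast markers summed to between 1398 and 1723 CPM in Klf9KI hearts and between 875 and 1289 CPM in Wt-Cre hearts. Atrial markers summed to between 1384 and 2447 CPM in Klf9KI hearts and between 36.4 and 86.5 CPM in Wt-Cre hearts. Of the fibroblast markers 1 of 5 was called higher, and of the atrial markers 1 of 4. The part of either list was not tested.

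The largest falls at 4 weeks beside those called at all ages included Ttll1, a subunit of a tubulin polyglutamylase, Rhobtb1, and Tef, a clock-controlled transcription factor. The Tef region, whose upstream bases are shown above, was among the longer ones at 1294 bp and had a mean signal of 37.9 after TAC and 43.4 in sham hearts. Tef RNA was 45.4, 49.4 and 45.8 CPM in Klf9KI hearts and 73.7, 178 and 323 CPM in Wt-Cre hearts. The Wt-Cre hearts differed widely among themselves, and the change of -2.03 (SE 0.50, adjusted p = 0.0472) was lost in 7 of 13 alternatives. Rhobtb1 had 30.9, 35.6 and 41.6 CPM in Klf9KI hearts and 54.4, 199 and 191 CPM in Wt-Cre hearts. Its call (-2.04, adjusted p = 0.0399) was lost in 7 of 13. At 8 weeks Rhobtb1 fell by 1.02 (adjusted p = 0.00468), with no loss. Ttll1 fell by 1.44 (SE 0.16, adjusted p = 0.000185) at 4 weeks and by 1.74 (SE 0.20, adjusted p = 0.000478) at 8 weeks, and its region downstream had 29.5 after TAC and 47.2 in sham hearts.

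At 8 weeks Comp and Ltbp2 rose most. Comp, the cartilage oligomeric matrix protein, held a CpG-island region 3023 bp inside the gene (chromosome 8, region 70376424 to 70376718) with a mean signal of 22.3 after TAC and 10.1 in sham hearts, and a peak call after TAC only. Comp RNA was 146, 139 and 59.7 CPM in Klf9KI hearts and 2.25, 2.51 and 0.844 CPM in Wt-Cre hearts, a log2 fold change of 5.95 (SE 0.46, adjusted p = 7.20e-05). Ltbp2 was 129, 208 and 100.3 CPM in Klf9KI hearts and 1.62, 4.36 and 6.14 CPM in Wt-Cre hearts, a change of 5.18 (SE 0.45, adjusted p = 0.000155). At 1 week the groups overlapped in both genes, and neither passed. Igsf23 rose by 3.13 (lost without Wt-Cre replicate 1 or 3), Kctd15, a BTB-domain protein, by 1.93 (lost without Wt-Cre replicate 2), Fam198b by 1.92 and Myom3, a myomesin of the M-band, by 1.92. Fibroblast markers, all detected, summed to between 908 and 1822 CPM in Klf9KI hearts and between 546 and 652 CPM in Wt-Cre hearts at 8 weeks, with 2 of 5 called higher. Skeletal muscle markers summed to between 2004 and 3101 CPM in Klf9KI hearts and between 273 and 985 CPM in Wt-Cre hearts, with 1 of 4 called. Macrophage markers summed to between 350 and 395 CPM in Klf9KI hearts and between 227 and 303 CPM in Wt-Cre hearts, with 2 of 5 called, and atrial markers to between 1456 and 2303 CPM and between 48.0 and 209 CPM, with 1 of 4 called. Such a sum can rest on 1 gene of its list, so these sums are not read as numbers of cells. Their part in the rises was not tested.

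Hopx, a small homeodomain protein that acts with repressors in the heart, fell at 8 weeks. Its region sits on the RefSeq start shown above, 19815 bp inside the gene as the table counts it, with 17.1 after TAC and 26.5 in sham hearts. Hopx RNA was 116, 63.5 and 76.3 CPM in Klf9KI hearts and 242, 319 and 245 CPM in Wt-Cre hearts at 8 weeks, a change of -1.65 (SE 0.25, adjusted p = 0.00236). At 1 week it was at 0.09 and at 4 weeks at -0.33 (adjusted p = 0.130). The summed cardiomyocyte markers were lower in Klf9KI hearts at that age, between 37130 and 39974 CPM, against between 50188 and 63013 CPM in Wt-Cre hearts, with 1 of 8 called, and smooth muscle markers summed to between 92.1 and 193 CPM against between 215 and 576 CPM, with 1 of 4 called. Their part was not tested.

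**Figure D5:**
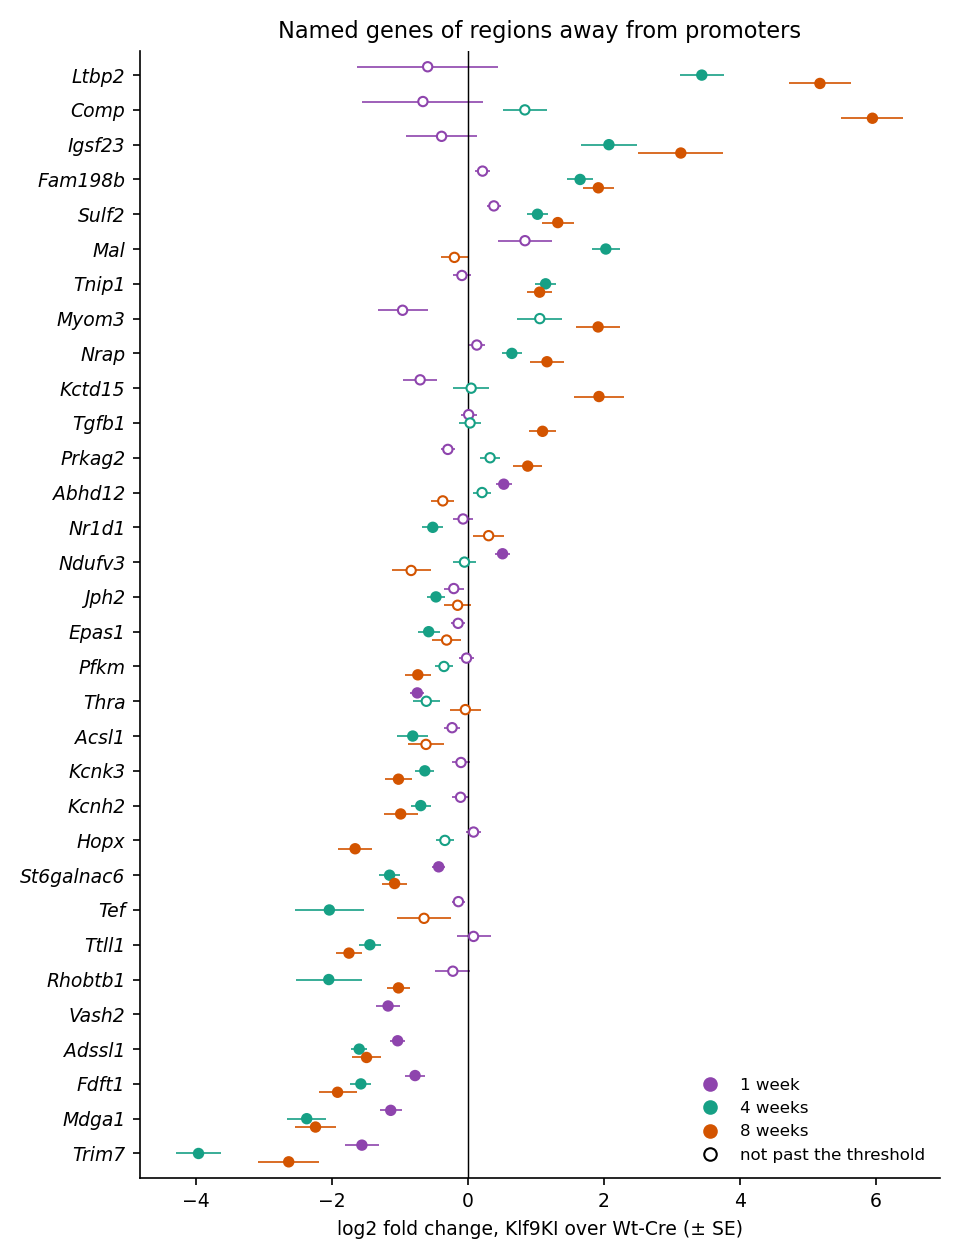
Log2 fold change of RNA, Klf9KI over Wt-Cre (± SE), at 1, 4 and 8 weeks for the 32 named genes, with open symbols for values not past the threshold. The 5 genes filled at all 3 ages, Trim7, Mdga1, Fdft1, Adssl1 and St6galnac6, lie left of 0, and Comp and Ltbp2 reach 5.95 and 5.18 at 8 weeks.

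Lists of genes of cardiac pathways were read for regions away from promoters. Of the matrix and TGF-beta list 5 of 41 genes had one, namely Col4a1, Comp, Dcn, Ltbp2 and Tgfb1. None was called at 1 week, Ltbp2 alone rose at 4 weeks, and Col4a1, Comp, Ltbp2 and Tgfb1 rose at 8 weeks, with a median of 1.38 over the 5 on the log2 scale. Over the whole list 34 of 40 tested genes rose at 8 weeks, with a median of 1.72. Tgfb1, the profibrotic cytokine, stood at 49.9, 35.6 and 37.4 CPM in Klf9KI hearts and at 20.03, 19.2 and 18.03 CPM in Wt-Cre hearts at 8 weeks (log2 fold change 1.10, SE 0.20, adjusted p = 0.00730). Its region lay downstream of the gene, with 28.7 after TAC and 23.8 in sham hearts.

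Ion channels and connexins had 4 of 29 genes with a region, and 2 of them fell at 4 and at 8 weeks. Kcnh2 forms the rapid delayed rectifier potassium channel of repolarization and held a CpG-island region of 888 bp, with 23.1 after TAC and 28.8 in sham hearts. It fell by 0.69 (adjusted p = 0.0109) at 4 weeks and by 0.98 (adjusted p = 0.0316) at 8 weeks, and 2 of 13 alternatives lost the first of these calls and 4 of 13 the second. Kcnk3, the acid-sensitive background potassium channel TASK-1, was 191, 131 and 160 CPM in Klf9KI hearts and 313, 308 and 354 CPM in Wt-Cre hearts at 8 weeks (-1.02, SE 0.20, adjusted p = 0.00966). Its region had 24.7 after TAC and 37.6 in sham hearts, with a peak call in sham only, and the Kcnk3 calls were lost in 2 of 13 alternatives at 4 weeks and in 1 at 8 weeks. Kcnq1 was not called at any age. Over the list 15 of 29 genes fell and 1 rose at 4 weeks, and likewise at 8 weeks.

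Of the clock list 3 of 20 matched genes had a region, and Nr1d1 and Tef fell at 4 weeks while Bhlhe41 did not pass. Over the whole list 7 of 20 tested genes fell and 0 rose at 4 weeks, with a median of -0.47. Nr1d1 encodes the haem-binding repressor REV-ERB alpha and lies tail to tail with Thra, whose end it overlaps. The same region, on chromosome 11 from 98768415 to 98768788, was assigned to both, with a mean signal of 29.3 after TAC and 35.4 in sham hearts, and a second region inside Thra had 33.3 and 24.2. Nr1d1 was 47.1, 60.9 and 52.6 CPM in Klf9KI hearts and 85.5, 81.5 and 62.2 CPM in Wt-Cre hearts at 4 weeks (-0.51, adjusted p = 0.0464), a call lost in 7 of 13 alternatives. The time of day at which hearts were taken is not given. The nuclear receptor list had 2 of 25 genes with a region, both described here. Over that whole list 8 of 25 genes fell and 0 rose at 4 weeks.

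Lists of energy supply were read next. In the fatty acid list 1 of 30 had one, Acsl1, which activates long-chain fatty acids, and it fell by 0.81 at 4 weeks (adjusted p = 0.0449), a call lost in 5 of 13 alternatives. Over that list 19 of 29 tested genes fell at 4 weeks and 20 of 29 at 8 weeks. In the glycolysis and glycogen list 4 of 35 had one, Aldoa, Gaa, Pfkm and Pygb, and Pfkm fell at 8 weeks. Over the whole list 8 of 35 genes fell and 3 rose at 8 weeks. Pfkm, the muscle phosphofructokinase, was 544, 545 and 497 CPM in Klf9KI hearts and 883, 955 and 797 CPM in Wt-Cre hearts (-0.73, SE 0.19, adjusted p = 0.0312), and this call was lost in 5 of 13 alternatives. Its region lies on a RefSeq start inside the gene, shown above, with 17.0 after TAC and 30.0 in sham hearts and a peak call in sham only.

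In the sarcomere list 3 of 25 had a region, Mybpc3, Nrap and Pdlim5. Nrap rose at 4 weeks by 0.65 and at 8 weeks by 1.17 (adjusted p = 0.0134 and 0.0146). Leaving out a library ended the 4-week call in 2 cases and the 8-week call in 3. Over the whole list 3 of 25 genes rose and 2 fell at 4 weeks, and 3 rose and 1 fell at 8 weeks. Nrap anchors actin at the intercalated disc, and its region had 6.88 after TAC and 22.8 in sham hearts. In the calcium list 1 of 20 had one, Jph2, the junctophilin that ties the transverse tubule to the reticulum. It held 3 regions and fell by 0.47 at 4 weeks (adjusted p = 0.0435), a call lost in 6 of 13 alternatives. Over the calcium list 8 of 19 tested genes fell and 0 rose at 4 weeks. In the vascular list 5 of 20 had a region, namely Cdh5, Dll4, Epas1, Nos3 and Vegfa, and of these Epas1 alone was called at any age. Epas1, the hypoxia-inducible factor 2 alpha, fell by 0.57 at 4 weeks (adjusted p = 0.0392), a call lost without any one of the Klf9KI libraries. Over the vascular list 2 of 20 genes fell and 0 rose at 4 weeks. In the insulin list 2 of 27 had a region, Irs1, which was not called at any age, and Prkag2. Prkag2, a gamma subunit of AMP-activated kinase, rose by 0.88 at 8 weeks (adjusted p = 0.0226), a call lost in 3 of 13 alternatives. Over the insulin list 2 of 27 genes rose and 2 fell at 8 weeks. Cdkn1a and Sgk1 of the 20 glucocorticoid response genes had a region and did not pass at any age. No gene of the Krüppel-like factor list (0 of 21), the fetal and stress list (0 of 19) or the branched-chain and ketone list (0 of 27 matched) had one.

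Genes with a region above the median sham value passed as 11 of 275 at 1 week, 60 of 270 (22.2%) at 4 weeks and 52 of 271 (19.2%) at 8 weeks, set beside the 3.70%, 18.7% and 15.7% of all assigned genes. Of the genes at the 8 regions with the highest sham signal, Ablim1 fell at 4 weeks by 0.91 (SE 0.13, adjusted p = 0.00136) and Arl3 at 8 weeks by 0.88 (SE 0.22, adjusted p = 0.0260). Fbxo46, Qpctl, Ski, Mrpl48, Asap2, Stoml2, Fam214b and Trim8 did not pass at any age. Fbxo46 averaged 5.19 CPM in Klf9KI hearts and 6.34 CPM in Wt-Cre hearts at 4 weeks (-0.29, SE 0.23). Fam214b was at -0.61 at 1 week (adjusted p = 0.0773) and at 0.57 at 8 weeks (adjusted p = 0.108). Of the assigned genes at the regions with the most extreme ratios, Padi4 rose at 4 weeks (1.97, adjusted p = 0.0269), with few counts at 2.47 CPM in Klf9KI hearts and 0.627 CPM in Wt-Cre hearts. Sema3b, a secreted semaphorin, rose by 0.54 at 4 weeks and by 0.72 at 8 weeks (adjusted p = 0.0363 and 0.0413). Of the genes with 3 or 4 regions, Fbxo31, a ubiquitin ligase subunit, fell by 1.01 at 4 weeks (adjusted p = 0.000514) and by 0.87 at 8 weeks (adjusted p = 0.0170). Usp2 (-1.14), Phldb1 (-0.63) and Tns1 (-0.44) fell at 4 weeks, Mical3 rose at 8 weeks (0.72), and Plec did not pass at any age.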

How the data were processed

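Per the file headers, the authors deposited 1 table of merged Klf9 regions with a mean and a highest signal per region and library, a presence call, the assigned genes with their distance and the number of promoters and CpG islands. Their log2 ratio of TAC to sham equalled the log2 of the deposited mean signals. The merged regions, genes and coordinates are those of the authors. The RNA tables hold raw counts per gene and library, per the file headers. Per the submitters' processing notes the tools were BWA and MACS2 2.1.0, and also StringTie 1.3.3b, HISAT2 2.0.5, fastp, DESeq2 1.20.0 and featureCounts 1.5.0-p3, on the build mm10. Their roles and options are not given. The labels' protocols describe poly-A selection and name a stranded and an unstranded kit without saying which was used.

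Each age was tested alone over all genes with edgeR 4.0.16 (filterByExpr, TMM, robust quasi-likelihood test, Benjamini-Hochberg, threshold 0.05) in R 4.3.3, after a check on simulated counts. Differences between ages came from 1 fit of 18 libraries over 16660 genes. TAC and sham had 1 library each and no test. CPM values use effective library sizes. A gene had a promoter region of its own where its start lay nearer than the limits of 2644 bp inside or 7629 bp upstream.

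Named regions were the 8 with the highest sham signal and the 5 with the highest and lowest ratio. Named genes were, at each age, the 6 largest rises and falls among called protein-coding genes whose groups did not overlap and whose higher mean reached 5 CPM, genes called at all 3 ages, and up to 3 called members of each list. Genes with 3 or more regions and Gm16170 were named after their values were seen. The regions, lists and rules were chosen with earlier results of these data known. Alternatives were DESeq2 1.42.0 size factors and its Wald test, other filters, 18 libraries in 1 fit, a replicate block, each library left out, and subsets of regions. A fit without robust shrinkage was added after seeing the data. The main test did not pair libraries by replicate number, and at no age did all same-numbered libraries deviate together with a correlation over 0.1. These correlations were 0.151, 0.061 and 0.293 at 4 weeks and 0.096, 0.141 and 0.206 at 8 weeks. At 1 week they were 0.079, 0.114 and -0.178. Such a limit cannot exclude a pairing. A result for 1 gene of the ion channel list is not reported here.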

Additional observations from a re-analysis of the deposited data

Results flagged for a closer look

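For 21 of the 32 named genes the genotype effect differed between ages by a test of the difference itself (edgeR, 18 libraries in 1 fit, adjusted p under 0.05 over 16660 genes). The genes had been chosen for their calls at single ages, so a difference between ages is partly built into the choice. Over all genes the difference passed for 1.15% (4 weeks minus 1 week) and 9.45% (8 weeks minus 1 week). All values are differences of log2 fold changes, and both contrasts share the 1-week libraries, of which Klf9KI replicates 1 and 2 carried Xist. A batch that went with age cannot be told apart from age.

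Between 8 weeks and 1 week the effect was more positive for Comp (6.59), Ltbp2 (5.74), Igsf23 (3.49), Myom3 (2.85), Kctd15 (2.60), Fam198b (1.67), Prkag2 (1.14), Tnip1 (1.11), Tgfb1 (1.05), Nrap (1.00) and Sulf2 (0.91). It was more negative for Ttll1 (-1.87), Hopx (-1.77), Ndufv3 (-1.38), Fdft1 (-1.17), Mdga1 (-1.14, adjusted p = 0.0493), Kcnk3 (-0.95), Abhd12 (-0.93), Kcnh2 (-0.92), Pfkm (-0.75) and St6galnac6 (-0.68). Ndufv3 and Abhd12 had been higher in Klf9KI hearts at 1 week and were at -0.83 and -0.37 at 8 weeks, neither past the threshold. Between 4 weeks and 1 week the effect was more positive for Myom3 (2.02), Fam198b (1.43) and Tnip1 (1.23) and more negative for Ttll1 (-1.53).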

How the results depend on the processing

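Counts of called genes of regions away from promoters (2 higher and 17 lower at 1 week, 25 and 69 at 4 weeks, 43 and 36 at 8 weeks) moved with the fit. At 1 week they were 6 and 29 with the DESeq2 Wald test, 0 and 1 with all 18 libraries in 1 fit, 6 and 33 with no filter, 2 and 10 without robust shrinkage, 0 and 4 at a fold of at least 2, 0 and 9 for genes without a promoter region of their own, 0 and 11 for regions above the median sham value, and 0 and 1 without the Xist libraries, which leaves 1 Klf9KI library. At 4 weeks they were 9 and 20 at a fold of at least 2, 22 and 40 for genes without a promoter region, and 18 and 42 for the upper regions. At 8 weeks they were 86 and 73 with all 18 libraries, 65 and 42 with no filter, 28 and 14 at a fold of at least 2, 33 and 23 without a promoter region, and 25 and 27 for the upper regions. Leaving out 1 library gave 0 to 1 higher and 8 to 12 lower at 1 week, 11 to 39 and 29 to 107 at 4 weeks, and 13 to 73 and 13 to 53 at 8 weeks. Each single omission moved a count by over 1.5 times at 1 week. So did leaving out any one of the Klf9KI libraries (fewer calls) or Wt-Cre replicate 3 (more) at 4 weeks, and Klf9KI replicate 1 or any one of the Wt-Cre libraries (fewer) or Klf9KI replicate 3 (more) at 8 weeks. A replicate block gave 0 and 13, 35 and 91, and 51 and 44, and whether the numbers pair the libraries was not settled. At 8 weeks each library correlated best with its own number. DESeq2 size factors and a filter of 1 CPM in 3 libraries moved no count by over 1.5 times. The cause of these shifts was not tested.

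Of 52 named calls 28 held in every alternative, 24 were lost in at least 1 and none changed sign. Of 42 named values not called, 10 passed in at least 1.

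Counted by distance, 1124 regions had no assigned start within 1 kb and 696 none within 5 kb, and of the 718 regions 593 had a peak call in sham and 528 after TAC. The share within a gene stayed near 66.4% under each alternative. The median log2 ratio was 0.0343 when centred and -0.0428 for regions called in both libraries. At 2-fold 13 regions (1.81%) were higher and 21 (2.92%) lower, where 1.07% and 2.39% of all merged regions were. Regions past the 1.5-fold limit were 27 higher and 42 lower among the stronger regions, and 13 and 13 for regions called in both.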
